A study of Homo sapiens with 8 samples.

Results

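Cholesterol synthesis and its sterol control were followed through 38 genes of the 15767 in the count table, taken by symbol for the enzymes of the mevalonate and sterol steps, the genes that control the transcription factor SREBP2, and the genes that move, store or export cholesterol. Of these, 20 encode synthesis enzymes, 8 belong to SREBP2 control, 3 to sterol trafficking and 2 to esterification. The other 5 are the liver X receptors (LXRs) with their efflux and other target genes. The study asked how ginsenoside Rk2, a saponin of ginseng, acts on liver cells in ischemia-reperfusion injury. RNA-seq was done on HuH7 cells, a wildtype, tumorigenic line derived from a human hepatoma, so that the values describe 1 cell line and not normal hepatocytes. All 8 libraries came from cells that went through oxygen-glucose deprivation and reperfusion (OGD/R), with 6 h at 1% oxygen in medium without glucose and then normal oxygen. For 6 h of reoxygenation the 4 libraries named I/R+DMSO received the solvent and the 4 named I/R+Rk2 received Rk2 at 20 µM. Cells without OGD/R were not analysed here, so no value below says what OGD/R itself did.

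In liver cells as elsewhere, cholesterol is built from acetyl units through mevalonate, isoprenoids, squalene and lanosterol. When sterols in the endoplasmic reticulum are scarce, SCAP carries SREBP2 to the Golgi, where the proteases encoded by MBTPS1 and MBTPS2 release its active part, which binds sterol regulatory elements in the promoters of the synthesis genes. INSIG proteins hold SCAP back when sterols are plentiful, while oxysterols activate the LXRs, which raise the genes of cholesterol efflux.

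The libraries held between 16374082 counts (I/R+Rk2 replicate 3) and 30310479 counts (I/R+Rk2 replicate 1), and the I/R+DMSO libraries between 18428485 and 21447045. The labels do not say that the libraries came from separate cultures, so p-values measure only the spread between these samples, which may be technical. Among the libraries I/R+DMSO replicate 1 stood apart, with a score of 78.7 on the second principal component against -48.5 to -41.5 in the other I/R+DMSO libraries, and each member whose call changed without it is given with that value. Hepatoma markers were abundant on the per-length scale of FPKM (fragments per kilobase of transcript, scaled to library size), with mean levels over the 8 libraries of 2388 FPKM for AFP and 1018 FPKM for ALB. Of the 6 hepatoma markers, 1 differed between the groups, FGB, with an adjusted p of 0.0462 in edgeR at a log2 fold change of -0.27, and their summed level was 9573, 8804, 8808 and 9224 CPM in I/R+DMSO and 9204, 8986, 8953 and 9160 CPM in I/R+Rk2, most of it AFP. Of the 6 markers of other cell types, PTPRC and KRT5 were listed at 0 FPKM in every library, ACTA2 had 0 to 2 counts and COL1A1 had 0 to 17 counts, whereas LYZ was present at 345 FPKM and PECAM1 at 1.52 FPKM, with 149 to 313 counts in each library. Neither of the 2 that could be tested was called, and the summed level was 629.8, 683.1, 653.9 and 654.9 CPM in I/R+DMSO and 607.1, 591.8, 586.1 and 684.7 CPM in I/R+Rk2, nearly all of it LYZ. In bulk libraries of this kind fewer cells and less RNA per cell cannot be told apart.

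Promoter sequences of 6 members are shown because they stand for the extremes of the data, the genes that rose most (INSIG1, STARD4, MSMO1 and HMGCS1), the gene of the transcription factor itself (SREBF2) and the efflux gene ABCA1. Each run ends just before the outermost start that RefSeq or GENCODE v29 annotates and is written 5′ to 3′ on the strand of its gene, in GRCh38.p14 as RefSeq gives it, with matches to the searched motifs in capitals. The windows lie at chr5:43313513-43313662 (minus strand) for HMGCS1, chr4:165327419-165327622 (plus) for MSMO1, chr5:111512591-111512785 (minus) for STARD4, chr7:155297628-155297775 (plus) for INSIG1, chr22:41832855-41833078 (plus) for SREBF2 and chr9:104928238-104928405 (minus) for ABCA1.
HMGCS1: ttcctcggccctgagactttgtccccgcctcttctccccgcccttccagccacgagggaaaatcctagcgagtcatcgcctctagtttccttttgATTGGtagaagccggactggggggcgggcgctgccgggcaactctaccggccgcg
MSMO1: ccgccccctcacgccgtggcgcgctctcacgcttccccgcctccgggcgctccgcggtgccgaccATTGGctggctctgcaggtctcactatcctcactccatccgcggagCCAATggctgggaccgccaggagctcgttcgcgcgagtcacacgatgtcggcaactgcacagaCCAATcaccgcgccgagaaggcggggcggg
STARD4: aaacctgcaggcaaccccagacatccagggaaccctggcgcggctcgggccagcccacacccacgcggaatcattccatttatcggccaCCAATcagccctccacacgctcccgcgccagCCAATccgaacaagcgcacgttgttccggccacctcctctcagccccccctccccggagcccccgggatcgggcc
INSIG1: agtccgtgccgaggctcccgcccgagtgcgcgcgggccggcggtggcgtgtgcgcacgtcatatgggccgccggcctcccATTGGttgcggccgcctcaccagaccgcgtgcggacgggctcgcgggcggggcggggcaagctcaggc
SREBF2: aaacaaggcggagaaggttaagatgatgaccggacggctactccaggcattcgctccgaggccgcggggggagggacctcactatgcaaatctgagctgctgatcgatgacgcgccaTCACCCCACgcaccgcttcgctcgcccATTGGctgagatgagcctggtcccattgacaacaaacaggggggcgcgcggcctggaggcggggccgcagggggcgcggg
ABCA1: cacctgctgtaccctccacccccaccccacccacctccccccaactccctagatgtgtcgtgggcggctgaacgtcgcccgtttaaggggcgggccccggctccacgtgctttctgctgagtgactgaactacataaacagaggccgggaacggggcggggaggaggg

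The 3 motifs were searched on both strands of windows from 250 bases before to 50 bases after each RefSeq start, and none of them contains another. The table held 35116 such promoters, 43 of them from 31 of the members. TCACNCCAC, a form of the sterol regulatory element, was found in 1.13% of all promoters and in 1 of the 43, that of SREBF2, 133 bases before the start. CCAAT, the box bound by NF-Y, a partner of SREBPs at sterol-controlled promoters, is the other capitalised motif and reads ATTGG where it lies on the opposite strand. It occurred in 34.6% of all promoters and in 53.5% of those of the members, with 15 of the 20 promoters of 15 genes that rose with Rk2 and 8 of the 23 promoters of 16 genes that were not called, and promoters of the same gene can share bases. Within the printed windows MSMO1 held 3 matches, STARD4 held 2, and HMGCS1, INSIG1 and SREBF2 held 1 each. ABCA1 had no match to any of the 3 motifs, and the LXR direct repeat, AGGTCA followed by AGGTCA after 4 bases of any kind, was in 0.0199% of all promoters and in 0 of those of the members. These counts describe letters in a window, and no test of them against the expression data was made.

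Enzymes of cholesterol synthesis rose with Rk2 at early, middle and late steps of the route, but not at every step. The calls of SC5D and DHCR7 near its end were lost in several fits that left out 1 library, and EBP was not called. HMGCS1, IDI1, SQLE, CYP51A1, MSMO1 and HSD17B7 each rose by more than 1.5-fold, and no enzyme of the 20 was called lower. Summed over the 20 enzymes, the level was 2827, 2717, 2742 and 2637 CPM in the I/R+DMSO libraries and 3890, 4060, 3807 and 3914 CPM in the I/R+Rk2 libraries, where CPM is the count scaled to TMM-normalised library size. HMGCS1 was the largest single part of this sum, at a mean of 624 CPM with DMSO and 1091 CPM with Rk2. A gene was called at an adjusted p below 0.05 in edgeR's quasi-likelihood test with Benjamini-Hochberg adjustment over all 12928 tested genes. By this rule 13 of the 20 enzymes rose and 0 fell, with 1 below an unadjusted p of 0.05 in the downward direction and 1 called lower by DESeq2 (PMVK in both cases), where among all tested genes 18.2% were called, 11.0% higher and 7.23% lower. The median log2 fold change (I/R+Rk2 over I/R+DMSO) of the 20 enzymes was 0.33, against -0.00211 for all tested genes. Counting libraries alone, 14 enzymes had every I/R+Rk2 library above every I/R+DMSO library and 1 the reverse, beside 15.4% and 12.9% of all tested genes. Fits that left out 1 library called 11 to 13 of the enzymes higher.

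**Figure D1:**
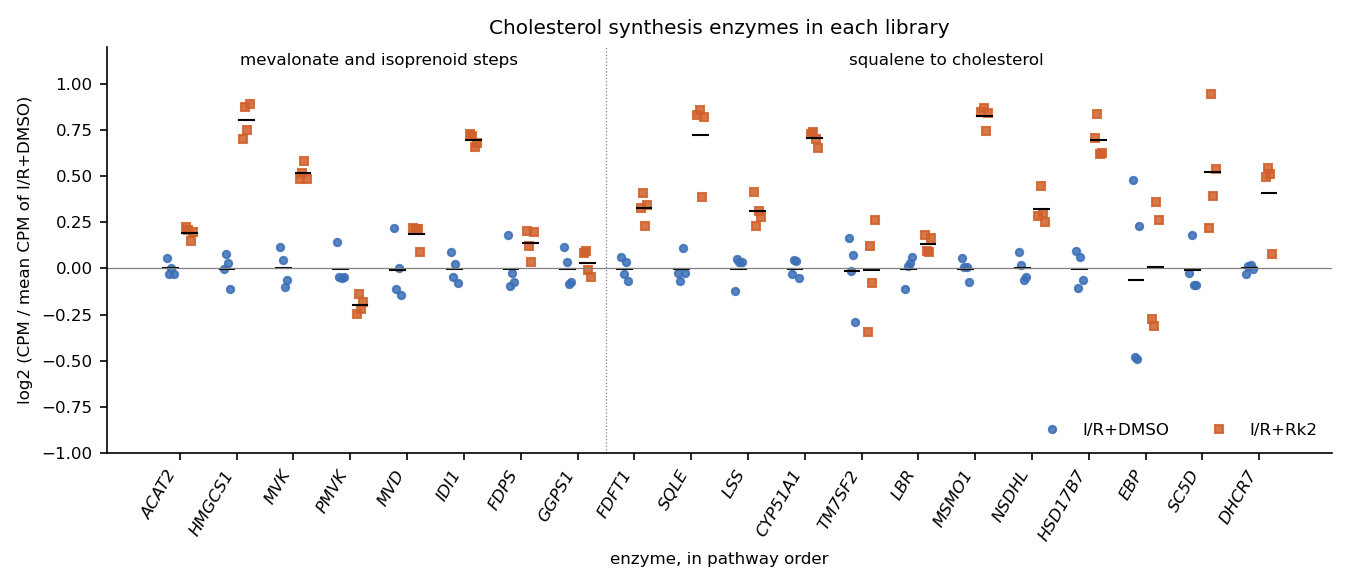
Each library's level of the 20 synthesis enzymes in pathway order, as log2 of its CPM over the mean CPM of the I/R+DMSO libraries (circles I/R+DMSO, squares I/R+Rk2, black bars the mean of the log2 values, n = 4 each). The I/R+Rk2 squares of HMGCS1, IDI1, CYP51A1, MSMO1 and HSD17B7 lie above all circles, those of PMVK lie below them, and EBP spreads widely in both groups.

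The early, mevalonate part of the route rose at 4 of its 8 enzymes, at its start, in the middle and at isopentenyl isomerisation, beside 11.0% of all tested genes, with a median log2 fold change of 0.19. ACAT2, the cytosolic thiolase that joins the starting acetyl units, was at 167.5, 158, 161 and 158 CPM with DMSO and at 188, 186, 179 and 185 CPM with Rk2. The groups did not overlap, but the step was small, a 1.14-fold rise (log2 fold change 0.19, standard error 0.0358, adjusted p = 0.00937 by edgeR). Its call was lost in limma on log2(FPKM + 1), with an adjusted p of 0.162. HMGCS1, which condenses acetoacetyl-CoA with acetyl-CoA and was the most abundant member per length at a mean of 248 FPKM, stood at 623, 658, 637 and 579 CPM with DMSO. With Rk2 it stood at 1013, 1145, 1049 and 1158 CPM, so that the lowest treated library was far above the highest control. That is a 1.75-fold rise (log2 fold change 0.81, standard error 0.0594, adjusted p = 0.000205 by edgeR).

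MVK, mevalonate kinase, was scarce by comparison, with a mean of 14.2 FPKM against the 248 FPKM of HMGCS1. Its levels were 28.7, 27.4, 24.7 and 25.4 CPM in I/R+DMSO and 37.1, 37.9, 39.6 and 37.1 CPM in I/R+Rk2, without overlap. The rise was 1.43-fold (log2 fold change 0.51, standard error 0.0623, adjusted p = 0.00187 by edgeR), and its exons overlap those of MMAB on the opposite strand. IDI1 turns isopentenyl diphosphate into its reactive isomer. It was at 154, 140.5, 148 and 137.5 CPM with DMSO and at 240.5, 238, 229 and 233 CPM with Rk2, and within each group the libraries lay close together. It rose 1.62-fold (log2 fold change 0.70, standard error 0.0448, adjusted p = 0.000109 by edgeR). The steps between MVK and IDI1 were not called. PMVK, phosphomevalonate kinase, had a log2 fold change of -0.20 (95% interval -0.34 to -0.06, adjusted p = 0.0586 by edgeR), with every I/R+Rk2 library (25.3 to 27.2 CPM) under every I/R+DMSO library (28.9 to 33.1 CPM), and it passed the threshold in DESeq2 at an adjusted p of 0.0408. After the correction for gene length the log2 fold change of PMVK was -0.11 (adjusted p = 0.153 by edgeR), and without I/R+DMSO replicate 1 it was -0.15 (0.074). MVD, the decarboxylase after it, had a log2 fold change of 0.19 (95% interval 0.00 to 0.37, adjusted p = 0.143 by edgeR), and FDPS, the farnesyl diphosphate synthase, one of 0.14 (adjusted p = 0.193, edgeR). Both passed in edgeR once I/R+DMSO replicate 1 was left out, MVD at a log2 fold change of 0.27 (adjusted p = 0.0153) and FDPS at 0.21 (0.0295). Corrected for gene length both passed as well, at adjusted p-values of 0.0317 for MVD and 0.00576 for FDPS in edgeR. MVD was also called in limma voom with sample weights (adjusted p = 0.0241) and in limma on log2(FPKM + 1) (0.0215), where FDPS was not (0.0593 and 0.223). GGPS1, which draws farnesyl units off to geranylgeranyl diphosphate for protein prenylation, had a log2 fold change of 0.03 (95% interval -0.11 to 0.18).

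Beyond farnesyl diphosphate the route commits to sterols, and here 9 of 12 enzymes rose and 0 fell, with 0 below an unadjusted p of 0.05 in the downward direction and 0 called lower by DESeq2. Among all tested genes 11.0% were called higher and 7.23% lower. The median log2 fold change of the 12 was 0.37. FDFT1, squalene synthase, makes the committed step. Its levels were 178, 168, 175 and 163 CPM with DMSO against 214.5, 227, 200.6 and 217 CPM with Rk2, with no overlap between the groups. The 1.26-fold rise (log2 fold change 0.33, standard error 0.0491) had an adjusted p of 0.00419 in edgeR and 0.0695 in limma on log2(FPKM + 1). SQLE, the monooxygenase that epoxidises squalene, was at 147, 143, 162 and 147 CPM with DMSO and at 267, 272, 196 and 264 CPM with Rk2. Replicate 3 of I/R+Rk2 was the low library, yet it still lay above every control. SQLE rose 1.67-fold (log2 fold change 0.74, standard error 0.104, adjusted p = 0.00356 by edgeR). LSS, which closes the ring system to lanosterol, was at 65.5, 73.9, 73.0 and 73.2 CPM with DMSO and at 95.2, 83.8, 88.6 and 86.7 CPM with Rk2. Here I/R+DMSO replicate 1 was lowest of all 8 libraries, and the groups did not overlap. LSS rose 1.24-fold (log2 fold change 0.31, adjusted p = 0.00984 by edgeR), a call lost in limma on log2(FPKM + 1) at an adjusted p of 0.132 and with the replicate block and length correction together at 0.062.

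CYP51A1 removes the 14-alpha methyl group of lanosterol. Its levels were among the tightest, 214, 225, 224 and 210.5 CPM with DMSO and 362, 365, 355 and 344 CPM with Rk2. The separation was wide against the spread within either group, at 1.63-fold (log2 fold change 0.71, standard error 0.0381, adjusted p = 5.82e-05 by edgeR). Its exons overlap AC000120.2 and AC000120.3 on the same strand, so that reads of these genes could be counted together. The next reduction can be done by the products of TM7SF2 or LBR, and neither was called. TM7SF2 ranged from 9.42 to 12.9 CPM with DMSO and from 9.07 to 13.8 CPM with Rk2, a log2 fold change of 0.02 (95% interval -0.33 to 0.36) that turned to -0.01 with upper-quartile normalisation. LBR had a log2 fold change of 0.13 (95% interval 0.02 to 0.25, adjusted p = 0.0901 by edgeR), although its groups did not overlap (112 to 127 CPM against 129 to 137.5 CPM).

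Removal of the C4 methyl groups needs MSMO1, NSDHL and HSD17B7, and all of them rose. MSMO1, the oxidase, was at 148.5, 143, 144 and 136 CPM with DMSO and at 257, 261, 239 and 256.5 CPM with Rk2. No control came near the treated libraries, and MSMO1 had the largest fold change of the 20 enzymes in this fit, 1.77-fold (log2 fold change 0.83, standard error 0.0436, adjusted p = 5.24e-05 by edgeR). NSDHL, the decarboxylating dehydrogenase, was at 51.3, 48.8, 46.2 and 46.7 CPM with DMSO and at 58.7, 65.7, 59.4 and 57.4 CPM with Rk2. Its groups were separate but close, for a 1.25-fold rise (log2 fold change 0.32, adjusted p = 0.00957 by edgeR) that was not called in limma on log2(FPKM + 1), at an adjusted p of 0.137. HSD17B7, the ketoreductase, was the least abundant synthesis enzyme per length, with a mean of 7.15 FPKM. It was at 9.66, 8.42, 9.47 and 8.67 CPM with DMSO and at 14.8, 16.2, 13.9 and 14 CPM with Rk2, with all treated libraries above all controls. HSD17B7 rose 1.63-fold (log2 fold change 0.70, standard error 0.0801, adjusted p = 0.00148 by edgeR).

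The last steps were less even. EBP, which shifts the sterol double bond, varied more between libraries than between groups, at 123, 63.4, 62.8 and 104 CPM with DMSO and 72.9, 71.0, 113 and 106 CPM with Rk2. Both groups held low and high libraries, and with a 95% interval of -0.58 to 0.66 around its log2 fold change of 0.04, a difference as large as the 0.55 of SC5D lay within the error. The sign of EBP turned when some single libraries were left out, with log2 fold changes from -0.09 to 0.24. SC5D, the sterol desaturase, was at 27.2, 31.4, 26.0 and 26.0 CPM with DMSO and at 32.3, 53.4, 36.3 and 40.3 CPM with Rk2. All treated libraries were higher, but replicate 1 of I/R+Rk2 exceeded replicate 2 of I/R+DMSO only slightly. The 1.47-fold rise (log2 fold change 0.55, standard error 0.152, adjusted p = 0.0399 by edgeR) lost its call without any library but I/R+Rk2 replicate 1, with adjusted p-values up to 0.0928 (without I/R+DMSO replicate 3; 0.0835 without its replicate 1), and in limma voom with sample weights at 0.0744. Without I/R+Rk2 replicate 2 its log2 fold change was 0.39.

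DHCR7 encodes the reductase that makes cholesterol itself and was second in level per length, at a mean of 216 FPKM. With DMSO alone DHCR7 (176 ± 8.45 FPKM), HMGCS1 (175 ± 14.1) and FDPS (178 ± 29.6, SD, n = 4 each) lay within each other's spread. The levels of DHCR7 were 303, 312, 314 and 308 CPM with DMSO and 436, 451, 440.5 and 327 CPM with Rk2. Replicate 4 of I/R+Rk2 lay near the controls while the other treated libraries were far above them, and the groups still did not overlap. DHCR7 rose 1.34-fold (log2 fold change 0.42, standard error 0.0958, adjusted p = 0.0211 by edgeR). Without I/R+Rk2 replicate 4 the log2 fold change was 0.51. The call was lost without I/R+DMSO replicate 1 (adjusted p = 0.0502, edgeR) and without I/R+Rk2 replicates 1, 2 or 3 (0.0535, 0.0560 and 0.0562).

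**Figure D2:**
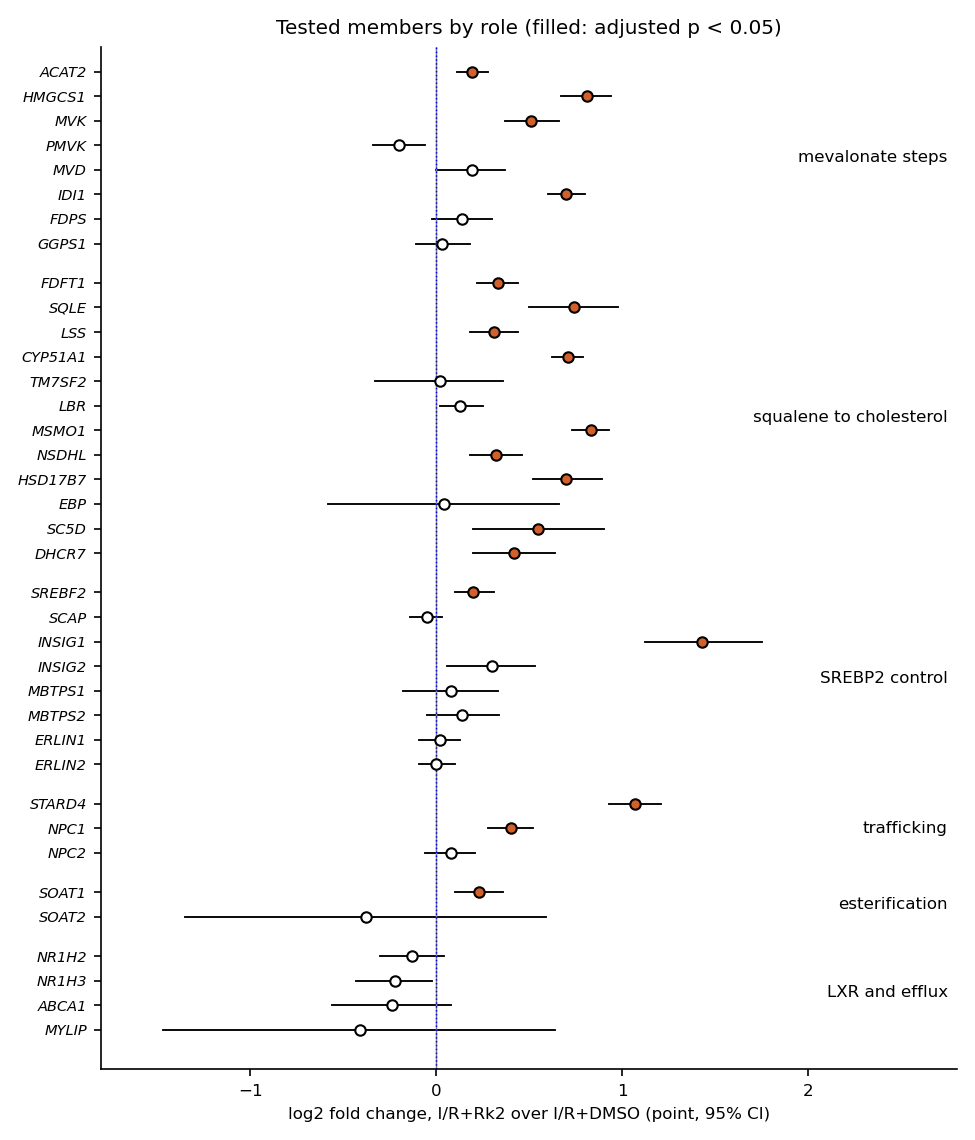
Log2 fold change of each tested member, I/R+Rk2 over I/R+DMSO, with its 95% interval, grouped by role (x axis; filled points have an adjusted p below 0.05 in edgeR, and the dotted line is the median of all tested genes). INSIG1 at 1.43 and STARD4 at 1.07 lie farthest to the right, and the 4 tested LXR and efflux genes lie left of 0 with open points.

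Of the 8 genes of SREBP2 control 2 were called higher, the brake INSIG1 and the factor SREBF2, beside 11.0% of all tested genes, and the call of SREBF2 was lost in several fits given with its values. In this role 0 fell, with 0 below an unadjusted p of 0.05 in the downward direction and 0 called lower by DESeq2. INSIG1, which retains SCAP in the endoplasmic reticulum and is itself a known SREBP target, was at 48.0, 52.5, 55.8 and 49.1 CPM with DMSO and at 152, 156, 145.5 and 101 CPM with Rk2. Even replicate 4 of I/R+Rk2, the low library, was far above the highest control. The 2.7-fold rise was the largest of all members (log2 fold change 1.43, standard error 0.136, adjusted p = 0.000771 by edgeR). Across left-out libraries the log2 fold change stayed between 1.37 and 1.56, and under the alternative settings between 1.16 and 1.46. INSIG2, the paralog that is not under the same sterol control, ranged from 16.6 to 22.0 CPM with DMSO and from 20.7 to 25.6 CPM with Rk2, with a log2 fold change of 0.30 (95% interval 0.06 to 0.53, adjusted p = 0.0765 by edgeR) that passed in limma voom with sample weights at an adjusted p of 0.0476 and without I/R+DMSO replicate 4 at 0.0348.

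Within each library the ratio of INSIG1 to INSIG2 counts does not depend on how libraries are scaled. Its log2 value was 1.37, 1.46, 1.75 and 1.15 in I/R+DMSO and 2.72, 2.68, 2.50 and 2.28 in I/R+Rk2. INSIG1 counts thus exceeded those of INSIG2 by 2.7 times on average with DMSO and by 5.84 times with Rk2, with no overlap. The difference of 1.12 in log2 ratio had p = 0.0286 in a two-sided exact permutation test, the smallest that 4 against 4 libraries allow, and 0.10 after Benjamini-Hochberg adjustment over the 7 ratios tested.

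SREBF2, the gene of SREBP2, was at 308.5, 350.3, 346 and 345 CPM with DMSO and at 380.1, 387, 393 and 394 CPM with Rk2. The groups did not overlap, and I/R+DMSO replicate 1 lay below the other controls. It rose by only 1.15-fold (log2 fold change 0.20, standard error 0.0464, adjusted p = 0.0209 by edgeR). This call was lost without I/R+Rk2 replicates 2, 3 or 4 (adjusted p-values of 0.0553, 0.0573 and 0.0631 in edgeR), in limma on log2(FPKM + 1) at 0.245, and after correction for gene length, where the log2 fold change was 0.07 with an adjusted p of 0.155. SCAP, the escort of SREBP2, had a log2 fold change of -0.05 (95% interval -0.14 to 0.03), with 122 to 126 CPM in I/R+DMSO and 116 to 125 CPM in I/R+Rk2. The protease genes were not called, MBTPS2 with a log2 fold change of 0.14 (95% interval -0.05 to 0.34) and MBTPS1 with 0.08 (95% interval -0.18 to 0.33), which turned to -0.01 after the length correction. ERLIN1 and ERLIN2, whose products restrain SREBP activation at the endoplasmic reticulum, had log2 fold changes of 0.02 and 0.00 that turned negative with upper-quartile normalisation, in limma voom and after the length correction. With that correction ERLIN2 passed the threshold at -0.18 (adjusted p = 0.0182, edgeR), while ERLIN1 was at -0.14 (0.0616). The log2 ratio of ERLIN1 to ERLIN2 within a library differed by 0.01 between the groups (adjusted p = 0.667, two-sided exact permutation test).

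**Figure D3:**
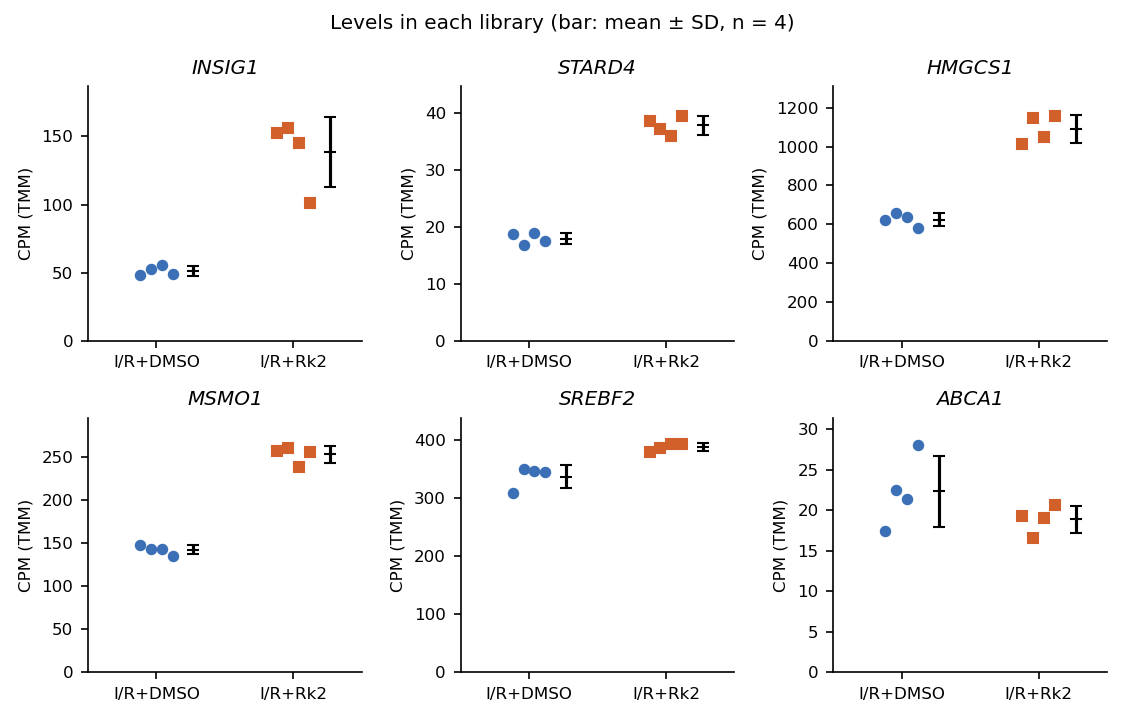
CPM of INSIG1, STARD4, HMGCS1, MSMO1, SREBF2 and ABCA1 in each library (circles I/R+DMSO, squares I/R+Rk2, bars mean ± SD, n = 4 each, axes from 0). INSIG1, STARD4, HMGCS1 and MSMO1 separate widely, SREBF2 by a small step, and the ABCA1 groups overlap.

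Of 3 genes that move sterols out of lysosomes and between membranes 2 were called higher, STARD4 and NPC1, beside 11.0% of all tested genes. STARD4, a soluble carrier that moves cholesterol to the endoplasmic reticulum, was at 18.8, 16.8, 18.9 and 17.5 CPM with DMSO and at 38.7, 37.2, 36.0 and 39.6 CPM with Rk2. The libraries of each group lay within a few CPM of each other and far from those of the other group. STARD4 rose 2.1-fold (log2 fold change 1.07, standard error 0.0612, adjusted p = 6.65e-05 by edgeR), and reads of STARD4-AS1, which overlaps it on the opposite strand, could be counted with it if strand was not used. NPC1, the lysosomal membrane protein that exports cholesterol, was at 78.9, 87.7, 86.5 and 82.5 CPM with DMSO and at 106, 106.5, 113 and 117 CPM with Rk2. Without overlap between the groups it rose 1.32-fold (log2 fold change 0.40, standard error 0.0524, adjusted p = 0.00254 by edgeR). NPC2, its soluble partner and the most abundant of the 3 per length at 40.9 FPKM, was at 36.6, 39.5, 33.7 and 37.8 CPM with DMSO and at 38.1, 39.2, 39.7 and 38.7 CPM with Rk2. Its groups overlapped, with a log2 fold change of 0.08 (95% interval -0.06 to 0.21, adjusted p = 0.389 by edgeR).

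Storage of cholesterol as esters depends on SOAT1 and, in hepatocytes, SOAT2. SOAT1 was at 66.1, 72.4, 72.7 and 78.3 CPM with DMSO and at 85.5, 81.1, 87.0 and 86.2 CPM with Rk2, with no overlap. It rose 1.17-fold (log2 fold change 0.23, adjusted p = 0.0273 by edgeR). The call did not hold after the length correction (log2 fold change 0.02, adjusted p = 0.734 by edgeR), in limma on log2(FPKM + 1) at 0.0642, or when replicate 2 or 3 of I/R+DMSO or replicate 1, 3 or 4 of I/R+Rk2 was left out, where adjusted p-values ran from 0.0611 to 0.0747. SOAT2 was near the limit of detection at 0.302 to 1.21 CPM over the 8 libraries, and its log2 fold change of -0.38 had a 95% interval from -1.35 to 0.59 and ran from -0.69 (without I/R+Rk2 replicate 1) to -0.11 (without I/R+DMSO replicate 3) with a library left out. The ratio of SOAT1 to SOAT2 within a library had a log2 difference of 0.63 (adjusted p = 0.60, two-sided exact permutation test), between 0.36 (without I/R+Rk2 replicate 3) and 0.93 (without I/R+DMSO replicate 2) with a library left out.

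No LXR or efflux gene passed the test. Of the 5, 4 had enough counts and 0 were called in either direction, with 1 (NR1H3) below an unadjusted p of 0.05 and 0 called by DESeq2, and their median log2 fold change was -0.23. With 18.2% of all tested genes called, a count of 0 among 4 is near the background. Their summed level was 80.93, 77.12, 77.24 and 85.54 CPM with DMSO and 68.02, 68.77, 74.83 and 69.89 CPM with Rk2. ABCA1, the transporter that loads cholesterol onto apolipoprotein A-I, was at 17.4, 22.5, 21.4 and 28.0 CPM with DMSO and at 19.3, 16.6, 19.0 and 20.6 CPM with Rk2. The groups overlapped, since I/R+DMSO replicate 1 was as low as the treated libraries, and the log2 fold change of -0.24 had a 95% interval from -0.56 to 0.08 (adjusted p = 0.261, edgeR). Without I/R+DMSO replicate 4, the highest control, the log2 fold change was -0.11, and without replicate 1 it was -0.34 (adjusted p-values of 0.523 and 0.086, edgeR). The call of ABCA1 depended on gene length. Corrected for length, its log2 fold change was -0.51 with an adjusted p of 0.00532 in edgeR, and it then counted as lower. NR1H3, which encodes LXR-alpha, was at 19.8, 16.8, 15.9 and 16.7 CPM with DMSO and at 13.4, 14.7, 15.8 and 15.6 CPM with Rk2. Every treated library was below every control, by a narrow margin, and the log2 fold change was -0.22 (95% interval -0.43 to -0.02, adjusted p = 0.118 by edgeR). NR1H2, which encodes LXR-beta and was the most abundant of these genes per length at 18.6 FPKM, was at 42.2, 35.8, 38.0 and 35.6 CPM with DMSO and at 33.6, 35.6, 36.8 and 32.3 CPM with Rk2. Its groups overlapped, with a log2 fold change of -0.13 (95% interval -0.30 to 0.04, adjusted p = 0.24 by edgeR). Without I/R+DMSO replicate 1 the log2 fold change of NR1H2 was -0.08 (adjusted p = 0.436, edgeR).

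Counts were low for the remaining genes of this role. MYLIP, the LXR-induced ubiquitin ligase that degrades lipoprotein receptors, was at 1.31 to 5.25 CPM, highest in I/R+DMSO replicate 4, with a log2 fold change of -0.41 whose 95% interval ran from -1.47 to 0.64, and without I/R+DMSO replicate 4 the log2 fold change was 0.19. ABCG1, the transporter that passes cholesterol to lipoprotein particles, was the member below the filter on low counts, with 2, 5, 0 and 0 counts in I/R+DMSO and 0, 0, 3 and 3 counts in I/R+Rk2 (p = 1.0, two-sided exact permutation test of CPM). A difference in ABCG1 was not detectable at this depth.

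The ratio of ABCA1 to HMGCS1 sets efflux against synthesis within a library. The log2 ratio of ABCA1 to HMGCS1 counts was -5.16, -4.87, -4.90 and -4.37 with DMSO and -5.71, -6.11, -5.78 and -5.81 with Rk2. All treated libraries were below all controls, and the mean ratio went from 0.0353 to 0.0173. The difference of -1.03 had p = 0.0286 in the two-sided exact permutation test and 0.10 after adjustment over the 7 ratios, and the larger part of it came from HMGCS1, whose own log2 fold change was 0.81 against -0.24 for ABCA1. In the exact sign-flip test of same-numbered pairs the adjusted p was 0.438. The remaining ratios were NR1H3 to NR1H2 (log2 difference -0.09, adjusted p = 0.60), TM7SF2 to LBR (-0.13, adjusted p = 0.667) and ABCA1 to ABCG1 (-0.11, adjusted p = 0.857), all by the two-sided exact permutation test.

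**Figure D4:**
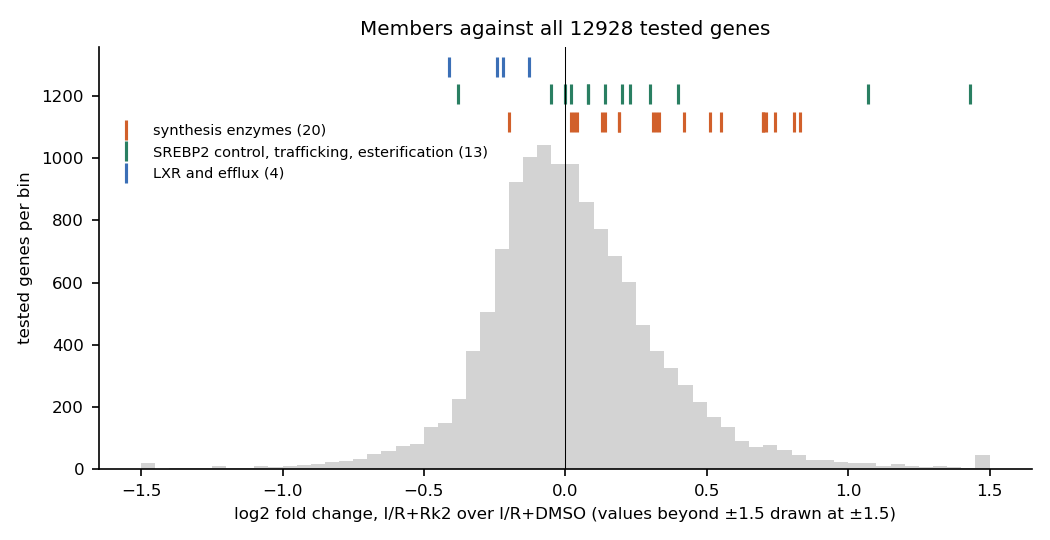
Histogram of the log2 fold changes of all 12928 tested genes (grey, genes per bin) with a tick for each tested member above it (bottom row 20 synthesis enzymes, middle row 13 control, trafficking and esterification genes, top row 4 LXR and efflux genes). The enzymes lie mostly right of 0, with PMVK the exception at -0.20, and the LXR and efflux genes lie left of it.

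Taking the roles together, 37 of the 38 members were tested, 18 rose and 0 fell, beside 11.0% of all tested genes called higher and 7.23% lower, with 2 (PMVK and NR1H3) below an unadjusted p of 0.05 in the downward direction and 1 (PMVK) called lower by DESeq2. Of the 18, 8 passed 1.5-fold, where 2.46% of all tested genes were called higher and 0.580% lower by more than 1.5-fold. The calls that held under all 11 alternative settings and without each of the 8 libraries were those of CYP51A1, HMGCS1, HSD17B7, IDI1, INSIG1, MSMO1, MVK, NPC1, SQLE and STARD4, 10 in number. Exons of ACAT2, HMGCS1, MVK, IDI1, FDFT1, LSS, CYP51A1, SREBF2, STARD4 and NPC1 overlap those of another gene on the opposite strand, and since the use of strand in counting was not given, reads of the overlapping genes cannot be told apart from theirs there.

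**Figure D5:**
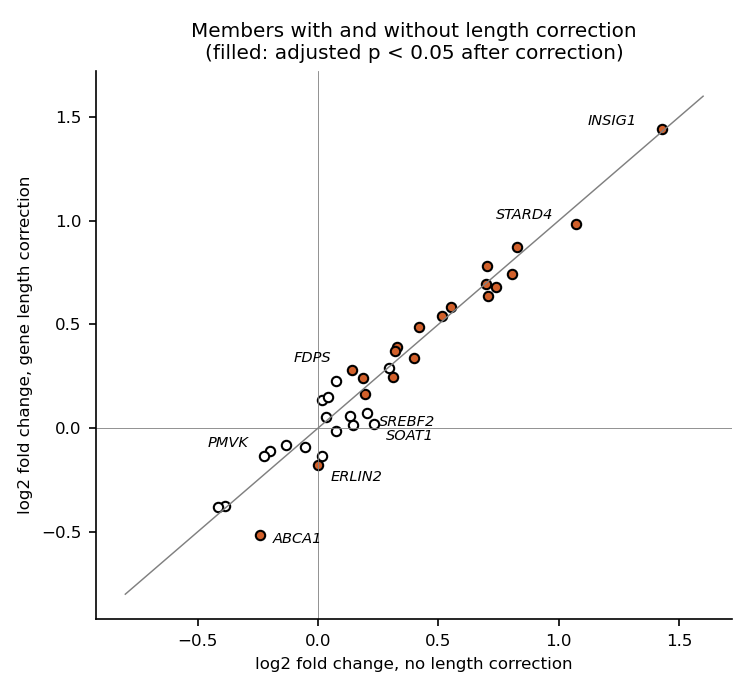
Log2 fold change of each tested member without (x axis) and with (y axis) a correction for gene length, with the line of equality (filled points have an adjusted p below 0.05 after the correction). INSIG1 at 1.43 and STARD4 at 1.07 without the correction stay at the top, SREBF2 and SOAT1 drop towards 0 and ABCA1 drops to -0.51.

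Longer genes tended to have higher log2 fold changes, with a Spearman rho of 0.388 over 12908 tested genes, which are not independent replicates, and a rho of -0.00517 after the length correction. The median log2 fold change of the 20 enzymes was then 0.38, and that of the members 0.23. Over all tested genes the median was -0.0218 after the correction. The part of length in these results was not tested further.

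Of the companion genes of the same pathways, 45 symbols in 5 lists, 40 were tested, 6 were called higher and 3 lower, close to the 11.0% and 7.23% of all tested genes. Among sterol transfer and hydrolysis genes 3 of 9 tested rose and 0 fell, with 1 below an unadjusted p of 0.05 in the downward direction and 1 called lower by DESeq2. OSBP, which exchanges cholesterol for a phosphoinositide at contact sites, rose from 247 ± 16.7 to 345 ± 11.9 CPM (SD, n = 4 each; log2 fold change 0.48, adjusted p = 0.00148 by edgeR). LIPA, the lysosomal cholesteryl ester hydrolase (log2 fold change 0.24, adjusted p = 0.0104 by edgeR), and TMEM97, an NPC1-binding protein (0.30, adjusted p = 0.0138 by edgeR), rose with it. Among the electron donors of the sterol oxygenases 1 of 6 rose, POR, the cytochrome P450 reductase (log2 fold change 0.18, adjusted p = 0.0219 by edgeR), a call that was lost when replicate 2 or 3 of I/R+DMSO or replicate 1 of I/R+Rk2 was left out, at adjusted p-values of 0.0518 to 0.0550. Of 11 genes of the isoprenoid side branches, NUS1, a subunit of the dolichol-making transferase, rose (log2 fold change 0.29, adjusted p = 0.00414 by edgeR) and FNTB, the beta subunit of farnesyltransferase, fell (log2 fold change -0.34, adjusted p = 0.0369 by edgeR). FNTB lost its call without any one of the 8 libraries (adjusted p-values up to 0.0889) and shares exons on the same strand with CHURC1-FNTB.

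In the list of sterol-regulated degradation machinery C12orf49, which supports SREBP processing, rose (log2 fold change 0.39, adjusted p = 0.00668 by edgeR). In the same list of 7 tested genes UBE2G2, a ubiquitin-conjugating enzyme of the endoplasmic reticulum, fell (log2 fold change -0.22, adjusted p = 0.0191 by edgeR). UBE2G2 lost its call when replicate 3 of I/R+DMSO or replicate 2 or 3 of I/R+Rk2 was left out, with adjusted p-values up to 0.0545. Among partners and further targets of the LXRs 0 of 7 tested genes were called, with 1 below an unadjusted p of 0.05 in each direction and 0 called by DESeq2. With 18.2% of all tested genes called, a count of 0 among 7 is near the background. SREBF1, the LXR target that drives fatty acid synthesis, was at 46.0 to 53.1 CPM with DMSO and 45.9 to 52.2 CPM with Rk2 (log2 fold change -0.02, 95% interval -0.17 to 0.13), and LPCAT3 had a log2 fold change of 0.05 (95% interval -0.18 to 0.29). Among the companions named here OSBP and LIPA passed under every alternative setting and without each library. In limma on log2(FPKM + 1) POR, FNTB, UBE2G2, C12orf49 and TMEM97 were not called (adjusted p-values of 0.0553 to 0.987), and after the length correction neither NUS1 (0.0741) nor C12orf49 (0.0587) was.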

How the data were processed

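RNA was taken by the authors from HuH7 cells (250 ng for each MGIEasy library). They deposited raw counts per gene for 15767 genes and FPKM, which the authors normalised for gene length and library size, for 19799 genes. The submitters' processing notes name hg38, HISAT2 2.2.1, StringTie 1.3.3 and FastQC 0.11.5. The counting tool, its use of strand and the annotation were not given in the sources used here. Groups came from the sample titles, and 0 columns were left unused. Date-like symbols, 22 in the counts (0.111% of counts), stayed in the test and were not assigned to genes.

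Counts were tested with edgeR 4.0.16 in R 4.3.3 (robust quasi-likelihood, TMM, condition only, Benjamini-Hochberg adjustment). The filter of 10 or more counts in 4 or more libraries left 12928 genes, and these held 99.96% of all counts. The biological coefficient of variation common to all genes was 17.1%. How far counting error set the precision of single genes with closer replicates was not tested. Alternatives were DESeq2 1.42.0, scaling by upper quartile or library size alone, a filter of 50 counts or none, limma 3.58.1 on log2(FPKM + 1) or log2(FPKM + 0.1) for genes with a mean of 0.5 or more, voom with weights for samples, a replicate block, a loess correction (span 0.5) for gene length derived from counts and FPKM, these last 2 together, and the omission of each library. The steps were tested on simulated data.

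Ratios used counts plus 0.5 and exact permutation tests written out in Python 3.11.15, with an exact sign-flip test over same-numbered libraries as an alternative. Exon overlaps came from GENCODE v29, with 6 members overlapping another gene on the same strand and 15 on the opposite strand, and promoters from RefSeq. The members, companion lists and tests were chosen with earlier results of these data known. Every member is named. Values in each library are given for called members and the most abundant member of each role by mean FPKM. They are also given for EBP, SREBF2, NR1H3 and ABCA1, and as counts for ABCG1. Of each companion list up to 3 called genes with the smallest p are named where reported here, and SREBF1 and LPCAT3 were added after their values were seen. Some genes of this pathway are not reported here.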

Additional observations from a re-analysis of the deposited data

Results flagged for a closer look

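A library was singled out where its gap to the nearest of the other 3 in its group, over the range of the group, exceeded the 95% critical value of Dixon's test. This held in 7 of the 74 groups of 4 values from tested members, where chance alone flags about 1 in 20. I/R+DMSO replicate 1 was the distant library for PMVK (33.1 CPM, the others 28.9 to 29.1), LSS (65.5 CPM, the others 73.0 to 73.9) and SREBF2 (308.5 CPM, the others 344.8 to 350.3), and also on the second principal component over all genes (78.7, the others -48.5 to -41.5). I/R+Rk2 replicate 4 was low for MVD (147.9 CPM, the others 161.0 to 161.6) and DHCR7 (326.6 CPM, the others 435.8 to 450.7). I/R+Rk2 replicate 3 was low for SQLE (195.7 CPM, the others 264.4 to 272.0), and I/R+DMSO replicate 4 was high for MYLIP (5.25 CPM, the others 1.38 to 1.98). The causes were not tested.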

How the results depend on the processing

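Of the 18 members called, 10 stayed past the threshold under all 11 alternatives and without each library, and 0 changed sign. Members called higher were 13 to 19 under the alternatives and 14 to 18 with a library left out, and synthesis enzymes 10 to 15 and 11 to 13. Over all tested genes the split of 1416 higher to 935 lower moved to 1246 to 1300 with upper-quartile scaling and 1643 to 684 with library size only. It was 812 to 309 in limma on log2(FPKM + 1), 798 to 308 on log2(FPKM + 0.1), 1142 to 672 with the replicate block, 1028 to 1243 with the length correction and 700 to 806 with both, and with a library left out 861 to 1414 were higher and 430 to 887 lower, fewest without I/R+Rk2 replicate 4. Same-numbered libraries did not deviate together (correlations of 0.016, -0.00945, 0.0381 and 0.0845), and the replicate block ended, among the genes named here, the calls of SOAT1 and FNTB.
Members called lower were 0 in the fit reported and without each library, 1 (PMVK) with DESeq2, upper-quartile scaling, at least 50 counts and voom, and 2 (ABCA1 and ERLIN2) with the length correction, with or without the block, which also made 1 LXR and efflux call. Companions called higher were 3 in each limma FPKM fit and 5 to 7 with a library left out. Those called lower were 5 with DESeq2, voom and the length correction, 1 with library size only and with the block, 0 in each limma FPKM fit, and 0 to 3 with a library left out. The causes were not tested.
Signs turned for TM7SF2 (upper quartile -0.0131, voom -0.00354), MBTPS1 (length -0.014, with block -0.016), ERLIN1 (upper quartile -0.0111, FPKM fits -0.00856 and -0.00865, voom -0.0119, length with or without block -0.136) and ERLIN2 (DESeq2 -0.000669, upper quartile -0.0257, voom -0.0237, length -0.176, with block -0.175), and for the log2 ratio of ERLIN1 to ERLIN2 from FPKM (-0.0648). With a library left out the ranges crossed 0 for TM7SF2 (-0.0836 to 0.119), EBP (-0.0922 to 0.244), ERLIN1 (-0.0192 to 0.0359), ERLIN2 (-0.0276 to 0.0236), MYLIP (-0.68 to 0.189) and the log2 ratios ABCA1 to ABCG1 (-0.776 to 0.52), ERLIN1 to ERLIN2 (-0.00296 to 0.0317) and TM7SF2 to LBR (-0.238 to 0.00266). Depth limits ABCG1 and SOAT2, and the sign of MYLIP rested on I/R+DMSO replicate 4.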
